A study of Mus musculus with 6 samples.

Results

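The complement genes described here are C1s1, C1ra, C2, C3, C4b, Cfb, Serping1, Cd55 and Masp1 of the mouse, 9 components and regulators of the complement system. They were chosen by gene name, with the differences between CD73+ and CD73- AD-MSCs already known, and C1s1 was picked for being among the largest rises. Of the 9 genes, 7 had at least 1 probe set of their own, the group of short probes that reads a transcript on the array, out of 18193 genes with such a probe set. C4b was read only by a probe set shared with its near-identical copy C4a, and C3 was not analysed here. The 7 genes had 15 probe sets of their own out of 45037, and 3 more were shared with another gene.

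AD-MSCs, mesenchymal stromal cells from the groin fat of adult C57BL/6 mice, were sorted by flow cytometry into CD73+ and CD73- subgroups. Both subgroups were grown on in low sugar DMEM with serum, received no treatment, and were taken for RNA at the fifth passage. RNA of each subgroup was hybridised to 3 Affymetrix arrays. Nothing in the labels ties the arrays to separate sorts, cultures or animals, so the SDs and p-values describe the spread between these arrays only, which may be technical.

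Complement is a cascade of secreted proteins that tags and lyses targets and calls in inflammatory cells. The classical pathway starts when C1q binds a target and the proteases C1r and C1s are activated; C1s then cuts C4 and C2. The lectin pathway does the same through mannose-binding lectin or related proteins and the MASP proteases, and the alternative pathway amplifies deposited C3 with factor B. C1 inhibitor, encoded by Serping1, blocks C1r, C1s and some of the MASPs, and CD55 on the cell surface speeds the decay of the convertases. The liver makes most plasma complement, but fibroblasts and other stromal cells also express several components, which inflammatory cytokines induce.

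All values are on the log2 scale as deposited, and each gene was read from its brightest probe set over the 6 arrays. Array medians lay between 5.28 and 5.37, and first quartiles between 3.83 and 3.92. Differences are CD73+ minus CD73-. The poly-A controls, bacterial transcripts usually added to the RNA before labelling, lay lower in CD73+ AD-MSCs, with a difference of -0.93 over 12 probe sets. Scaling the arrays to them moved the median difference over all probe sets from -0.000187 to 0.93, so directions hold relative to the deposited scale. Nt5e, which encodes CD73, checked the sort. It read 7.84, 7.60 and 7.74 in CD73+ and 7.29, 6.39 and 6.84 in CD73- AD-MSCs, without overlap and with a difference of 0.88 (limma, adjusted p = 0.0218). The Nt5e call ended when any of CD73- replicate 3, CD73+ replicate 1 and CD73+ replicate 3 was left out (limma, adjusted p of 0.0569, 0.0763 and 0.0563). Read from the mean of its probe sets Nt5e differed by 0.27 and was not called (limma, adjusted p = 0.101), nor was its brightest probe set by the methods' t-test (equal variances, named by the study for its other data) after Benjamini-Hochberg.

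Of the 7 measured complement genes, 6 were called higher in CD73+ AD-MSCs by limma (adjusted p under 0.05), 0 were lower with or without adjustment, and C2 did not pass. Over all genes, 10.1% were called higher and 12.6% lower. In the same 6 genes, all CD73+ arrays lay above all CD73- arrays, as they did in 18.1% of all genes. The difference between the subgroups was used in choosing the list, so these counts describe the members and nothing is read from them. The median difference was 0.43 over the 7 genes and -0.018 over all genes. After scaling to the poly-A controls, 7 of 7 were higher, while nearly all other probe sets were higher too.

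The proteases of the C1 complex had the largest differences. C1s1, the protease that cuts C4 and C2, read 10.02, 10.10 and 10.14 in the 3 CD73+ arrays and 8.63, 8.56 and 8.42 in the 3 CD73- arrays. The lowest CD73+ array lay 1.39 above the highest CD73- array. The means were 10.08 ± 0.060 (SD, n = 3) and 8.54 ± 0.11 (SD, n = 3), a difference of 1.54 (standard error 0.072), or 2.92-fold. Of 18193 genes, 8 had a larger difference. C1ra, which activates C1s, read 8.47, 8.43 and 8.49 in CD73+ and 7.45, 7.20 and 7.07 in CD73- AD-MSCs. The CD73+ arrays lay close together and the CD73- arrays were spread over a wider range, with a gap of 0.99 between the subgroups. Its difference was 1.22 (standard error 0.096), or 2.34-fold, and 37 genes had a larger one.

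C1ra and C1s1 are neighbours among the protein-coding genes of mouse chromosome 6, in the order C1rl, C1ra, C1s1, C1rb in RefSeq. A probe set shared by C1ra and its copy C1rb read 6.77, 6.34 and 6.96 in CD73+ and 6.78, 6.12 and 5.78 in CD73- AD-MSCs. The subgroups overlapped there, and the difference of 0.46 had a standard error of 0.26. The probe set of C1s1 is of the kind whose probes can match several related transcripts, and a share of its signal from the copy C1s2 cannot be told apart.

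Because these neighbours moved together, the 250 bases before the gene start are shown for both, from RefSeq on the build GRCm38.p6 (C1s1 at chr6:124542360-124542609 on the minus strand, C1ra at chr6:124512371-124512620 on the plus strand). Capitals mark the letters of a C/EBP core, the binding motif of factors that act in acute-phase induction.
C1s1: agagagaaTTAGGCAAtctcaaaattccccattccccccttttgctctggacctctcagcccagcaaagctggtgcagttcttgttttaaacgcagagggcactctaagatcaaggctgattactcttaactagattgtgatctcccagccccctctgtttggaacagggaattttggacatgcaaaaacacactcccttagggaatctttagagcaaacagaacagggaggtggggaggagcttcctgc
C1ra: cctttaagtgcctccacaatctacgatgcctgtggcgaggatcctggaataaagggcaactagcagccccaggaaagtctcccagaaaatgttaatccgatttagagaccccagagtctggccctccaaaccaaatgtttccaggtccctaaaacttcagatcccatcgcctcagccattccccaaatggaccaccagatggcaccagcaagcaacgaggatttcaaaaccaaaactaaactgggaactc
Both strands were searched for 4 motifs: the C/EBP core TTGCNNAA, the STAT site TTCNNNGAA, an interferon-stimulated response element core made of GAAA and GAAA with any 2 bases between them, and the NF-kappa-B motif. A stretch of letters could count for more than 1 motif. C1s1 held 1 C/EBP core on the reverse strand, at positions -242 to -235 from its upstream start, and C1ra held none of the 4. Over all 32851 gene starts, 9.56% held the C/EBP core, 7.02% the STAT site, 2.98% the interferon element and 7.25% the NF-kappa-B motif within the same length. A promoter was found for 4 of the 9 genes. C3 held 1 C/EBP core at positions -45 to -38, and the windows of Cd55 and of the other start of C1s1 held none of the motifs. The window of that other start (chr6:124542322-124542571) largely overlaps the one shown and leaves out the stretch that holds the C/EBP letters. Such a match is a run of letters and not a known site, and a missing match says only that the letters are not in this window.

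**Figure D1:**
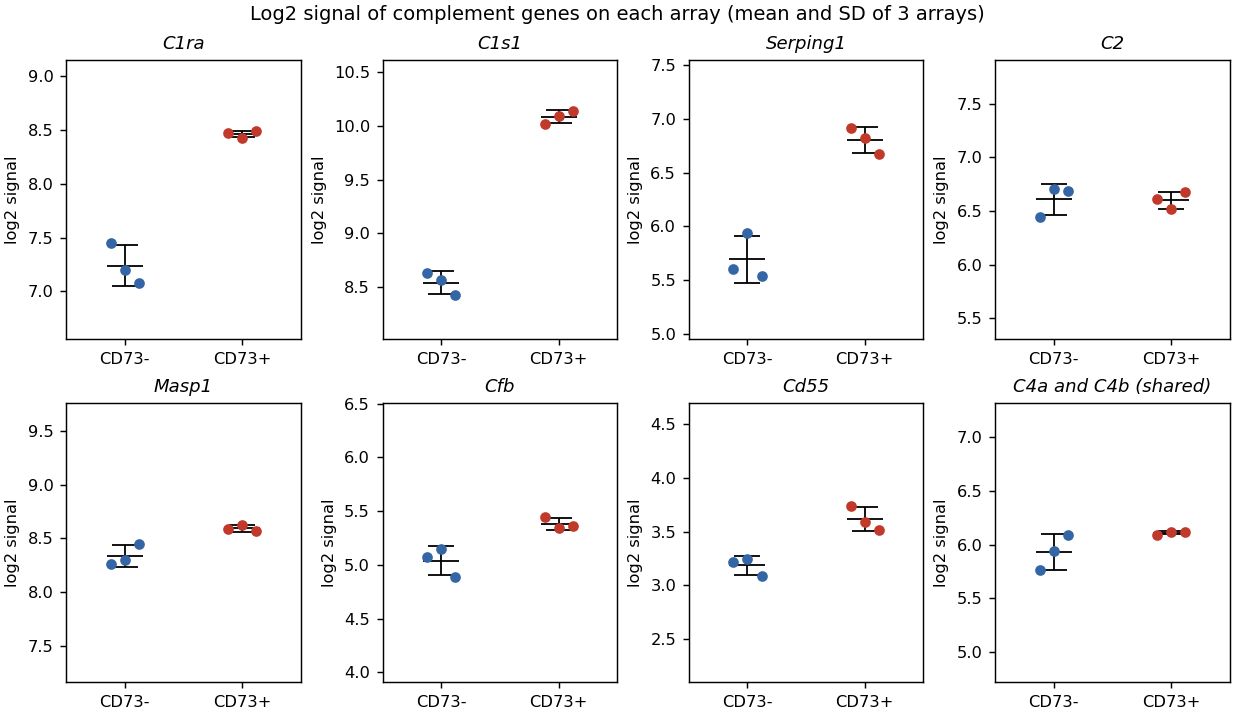
Log2 signal (vertical axes, each spanning the same range of log2 units around the gene's own mean) of 7 complement genes on their brightest probe set and of the probe set shared by C4a and C4b. Points are arrays, and black lines give the mean and SD of 3 arrays. The CD73+ and CD73- points are far apart for C1ra, C1s1 and Serping1, at 1.22, 1.54 and 1.11, narrowly apart for Masp1, Cfb and Cd55, and mixed for C2. After scaling to the poly-A controls every difference is larger and C2 is higher too.

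The inhibitor of these proteases was higher as well. Serping1, which encodes C1 inhibitor, read 6.92, 6.82 and 6.67 in CD73+ and 5.60, 5.94 and 5.54 in CD73- AD-MSCs. The lowest CD73+ array stood 0.73 above the highest CD73- array. The means were 6.80 ± 0.12 (SD, n = 3) and 5.69 ± 0.22 (SD, n = 3), and the difference was 1.11 (standard error 0.12), or 2.16-fold. For Serping1, 58 genes, or 0.319%, had a larger difference. Among the 7 members C1ra and Serping1 are next to each other in the order of the differences, and their gap is smaller than the sum of their standard errors. Levels of different probe sets cannot be set against each other, so nothing can be said on the ratio of inhibitor to protease.

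The substrates of C1s gave no such difference where they could be read. C2, the component that C1s cuts to form the classical convertase, read 6.61, 6.52 and 6.67 in CD73+ against 6.44, 6.70 and 6.68 in CD73- arrays. The arrays of the subgroups were mixed, with a difference of -0.0071 (standard error 0.086). Its other probe sets were dimmer than the array medians, with differences of 0.0018 and -0.10 (standard errors 0.15 and 0.22). Their arrays overlapped as well. The brightest C2 probe set and the one at -0.10 are of a kind whose probes can also match other transcripts. A share of their signal from such transcripts cannot be told apart. The probe set annotated to both C4a and C4b, where C4b is the C4 component proper, read 6.09, 6.12 and 6.12 in CD73+ and 5.76, 5.94 and 6.09 in CD73- AD-MSCs. CD73- replicate 3 lay within the CD73+ range, and the difference was 0.18 (standard error 0.087). After scaling to the poly-A controls C2 had a difference of 0.92, close to the shift of 0.93 that all probe sets share.

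Cfb and C2 lie next to each other on chromosome 17 in RefSeq and encode the matching proteases of the alternative and the classical convertase. Unlike C2, Cfb was higher on every CD73+ array. Cfb read 5.44, 5.34 and 5.36 in CD73+ and 5.07, 5.15 and 4.89 in CD73- AD-MSCs, values around the array medians. The subgroups were 0.19 apart at their nearest arrays, and the difference was 0.34 (standard error 0.079), or 1.27-fold. Leaving out CD73- replicate 1, CD73+ replicate 1 or CD73+ replicate 2 ended the Cfb call, at differences of 0.36, 0.31 and 0.36.

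Masp1, whose transcripts encode the proteases MASP-1 and MASP-3 through alternative splicing, had 5 probe sets. Which product each probe set reads is not given in the sources used here. The brightest read 8.59, 8.63 and 8.57 in CD73+ and 8.26, 8.30 and 8.45 in CD73- AD-MSCs. CD73- replicate 3 came within 0.12 of the CD73+ arrays, and the difference was 0.26 (standard error 0.067), or 1.20-fold. The next brightest gave 0.34 (standard error 0.057), reading 8.17, 8.21 and 8.27 against 7.92, 7.88 and 7.84. A further one gave 0.40 (standard error 0.068). All 3, unlike the others, are of kinds whose probes can match several transcripts, so signal from elsewhere cannot be told apart. These 3 probe sets of Masp1 passed, all without overlap, while the dimmest, which read between 3.85 and 4.11 and between 3.18 and 3.97, had differences of 0.090 and 0.39 (standard errors 0.080 and 0.14) with overlapping arrays. The call of the brightest Masp1 probe set was lost when any 1 array other than CD73- replicate 3 was left out, at differences of 0.22 to 0.27, and with median centring of the arrays, at 0.23.

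Cd55, the decay-accelerating factor that protects cells from their own complement, was dim on all its probe sets. Its brightest read 3.74, 3.59 and 3.52 in CD73+ and 3.22, 3.25 and 3.09 in CD73- AD-MSCs, below the first quartile of every array. The difference was 0.43 (standard error 0.078), with 0.27 between the nearest arrays of the subgroups. The others gave 0.63 (standard error 0.12) and 0.31 (standard error 0.057), so that all 3 Cd55 probe sets separated the subgroups. Signal this low is near the floor of such arrays, and the deposited values carry no detection call. A probe set shared with the copy Cd55b read 2.57, 2.69 and 2.48 in CD73+ and 2.94, 2.59 and 2.51 in CD73- AD-MSCs, with overlap.

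Over all 15 probe sets of the members, 10 passed higher and 0 lower, beside 9.79% of all probe sets called higher; the list was chosen on this difference, and nothing is read from the count. The 5 that did not pass were the 3 of C2 and the 2 dimmest of Masp1. Probe sets of 1 gene share its RNA and are not replicates.

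**Figure D2:**
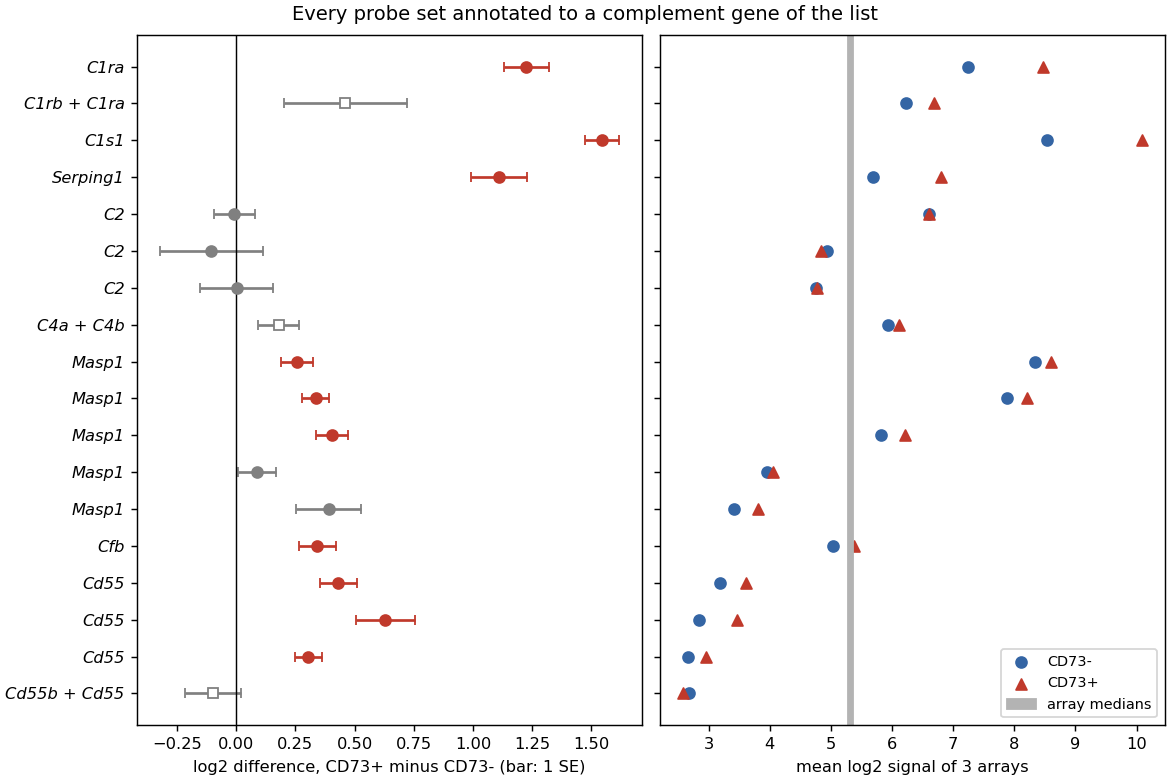
Left, log2 difference (CD73+ minus CD73- AD-MSCs) with 1 standard error from limma for each of the 18 probe sets of the complement members; right, mean log2 signal of 3 arrays per subgroup, with the range of the array medians in grey. Red marks probe sets called by limma, grey those not called, and open squares are probe sets shared by a pair of genes. The differences run from 1.54 for C1s1 to -0.10 for a C2 probe set, and the Cd55 probe sets lie left of the array medians; after scaling to the poly-A controls the lower values turn.

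**Figure D3:**
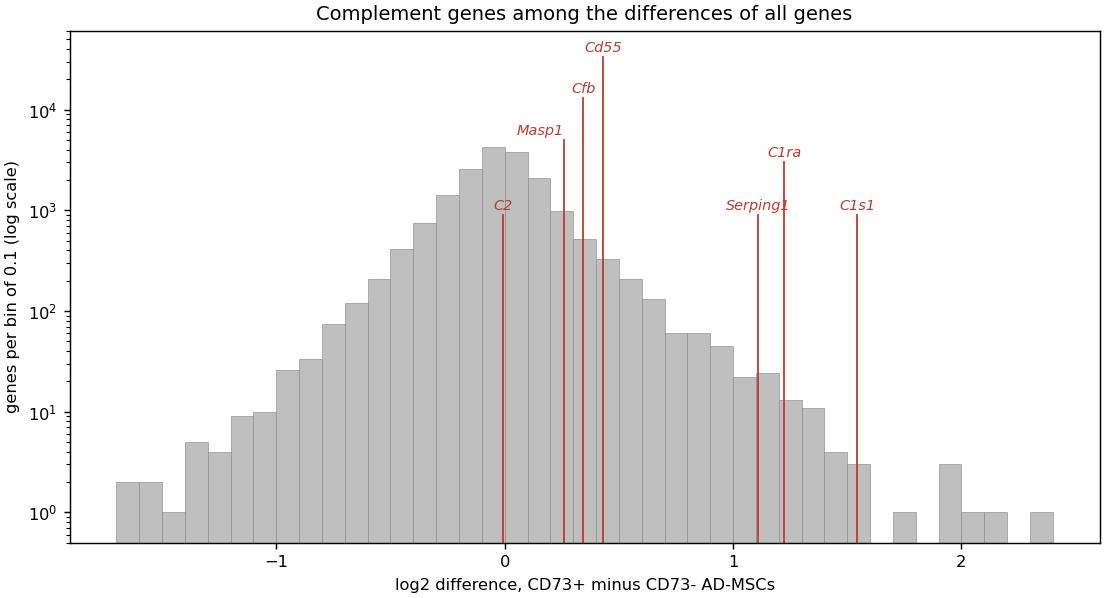
Number of genes (vertical axis, log scale) by log2 difference, CD73+ minus CD73- AD-MSCs, in bins of 0.1 over 18193 genes, with red lines at the 7 measured complement genes (line heights carry no value). C1s1, C1ra and Serping1 stand in the right tail, with 8, 37 and 58 genes beyond them, and C2 at the centre; scaling to the poly-A controls shifts the whole distribution right by 0.93.

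Other complement genes were read beside the members. A wider list of 58 complement genes, compiled from general knowledge, had 46 measured genes, of which 39 were not members. By limma (adjusted p under 0.05), 2 of these 39 were higher and 2 lower, 35 did not pass, and the median difference was -0.00042. The shares of all genes called higher and lower, 10.1% and 12.6%, were above those of these 39. With the members, 8 of the 46 were higher and 2 lower. The members were chosen with their differences known, so nothing is read from the count of the rest. With poly-A scaling, 46 of 46 genes of the list were higher.

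C3ar1, the receptor of the C3a fragment, was higher on all its probe sets. Its brightest read 6.79, 6.65 and 6.72 in CD73+ and 6.31, 6.27 and 6.15 in CD73- AD-MSCs. The difference was 0.47 (standard error 0.068; limma, adjusted p = 0.00316), and the others gave 1.02 and 0.64, all without overlap. Colec12, a scavenger receptor with a collectin domain, was higher by 0.47 (limma, adjusted p = 0.0401), but CD73- replicate 1 at 7.79 lay close below CD73+ replicate 1 at 7.89. The Colec12 call was lost with median centring (limma, adjusted p = 0.0539) and when any 1 array other than CD73- replicate 1 was left out (0.0563 to 0.127). A replicate block (limma, adjusted p = 0.0956) and the methods' t-test after Benjamini-Hochberg also ended the Colec12 call.

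C1qc and C1qbp were lower on the deposited scale, and both turned higher once arrays were scaled to the poly-A controls. C1qc, a chain of C1q, differed by -0.30 (limma, adjusted p = 0.048) at means of 3.49 and 3.79, below the first quartiles. Its call was lost with quantile normalization (limma, adjusted p = 0.0717) and when any 1 array other than CD73- replicate 3 was left out (0.071 to 0.152). A trended, robust eBayes prior and a replicate block also ended the C1qc call (limma, adjusted p of 0.0576 and 0.0736), as did the methods' t-test after Benjamini-Hochberg. C1qbp, a mostly mitochondrial protein that binds C1q, fell by 0.21 (limma, adjusted p = 0.0421). The C1qbp call was lost with quantile normalization (limma, adjusted p = 0.053), with a replicate block (0.118) and whichever array was left out (0.0602 to 0.148). The other C1q chains, which macrophages mainly make, lay at 4.29 and 4.37 for C1qa and at 3.24 and 3.29 for C1qb in CD73+ and CD73- AD-MSCs, with overlapping arrays.

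Of 6 measured genes of the terminal pathway, which forms the lytic pore, 0 passed in limma with or without adjustment, and their differences ran from -0.063 for Hc, the gene of C5, to 0.14 for C8g. Their mean levels lay between 3.38 and 5.47. Among the lectin pathway genes, Masp2 gave -0.059 on its brightest probe set and 0.41 (limma, adjusted p = 0.00695) on the other, where its means of 3.37 and 2.96 lay below the first quartiles. Cfp, the gene of properdin, which stabilises the alternative convertase, had a difference of 0.14 with overlapping arrays.

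Among the other fluid-phase regulators 0 of 7 passed in limma, with 1 at an unadjusted p under 0.05. Clu, the gene of clusterin, which blocks the assembly of the lytic pore, had a difference of 0.29 on its brightest probe set (limma, adjusted p = 0.0662) without overlap, and the other Clu probe sets gave 0.39, 0.50 and 0.62 (limma, adjusted p of 0.00914, 0.0101 and 0.00554). Read from the mean of its probe sets, Clu passed (0.45; limma, adjusted p = 0.00087), and its brightest probe set passed when dim probe sets were left out and with a trended, robust eBayes prior (0.0259 and 0.0257). Cfi, which cleaves C3b and C4b, had 0.038 and Vtn, the gene of vitronectin, -0.12, both with overlap.

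Of the 6 surface regulators other than Cd55, 0 passed in limma, with 2 at an unadjusted p under 0.05. Cd59a, which blocks the lytic pore, lay at 8.85 in both subgroups, with a difference of 0.0058. Cr1l, the rodent regulator Crry, read 10.42, 10.46 and 10.50 in CD73+ and 10.67, 10.63 and 10.59 in CD73- AD-MSCs, a difference of -0.17 without overlap on the deposited scale (limma, adjusted p = 0.0752), which turned to 0.75 after scaling to the poly-A controls. Cr1l passed when dim probe sets were left out and with a trended, robust eBayes prior (limma, adjusted p of 0.0179 and 0.00257), and by the methods' t-test after Benjamini-Hochberg. Cd46 had -0.12 with overlap. C5ar1, the receptor of C5a, lay at 4.47 and 4.42, with overlapping arrays.

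**Figure D4:**
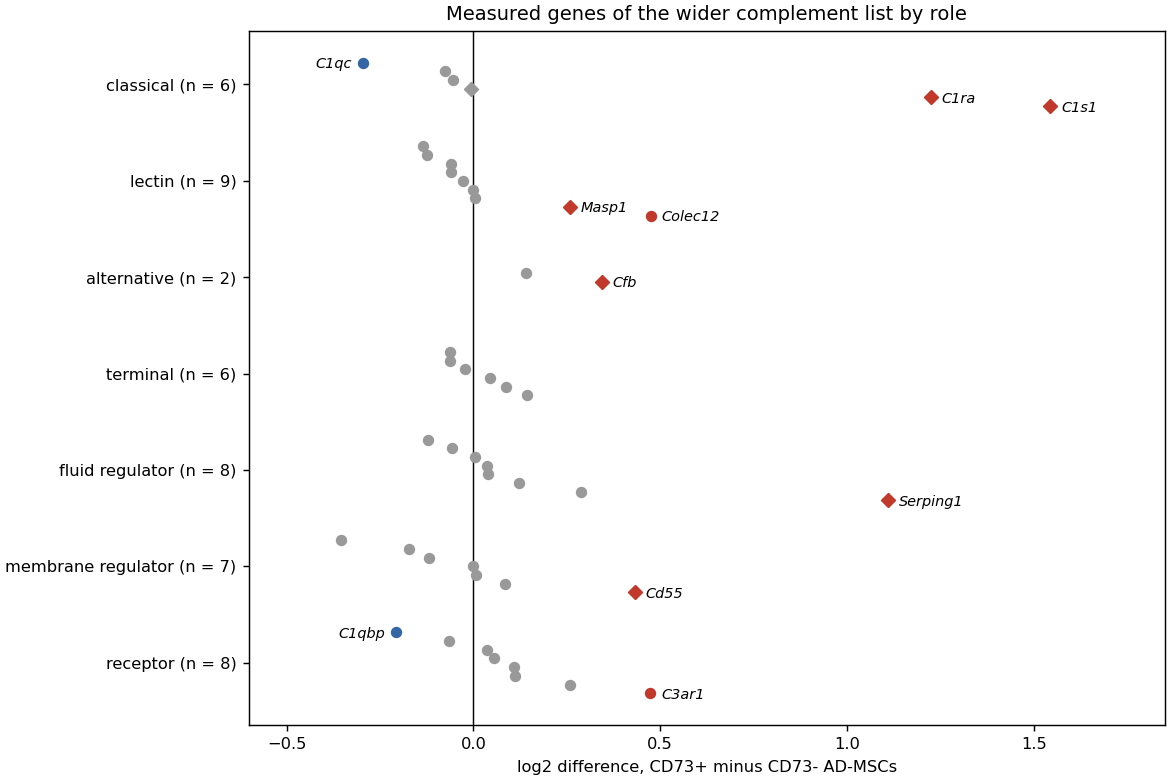
Wider complement list by role, with the CD73+ minus CD73- log2 difference of each of its 46 measured genes, each drawn as 1 point; diamonds are the listed members. Named points were called by limma, red for higher and blue for lower, and grey points were not called. C1s1, C1ra and Serping1 stand apart at 1.11 to 1.54, while the terminal genes stay between -0.063 and 0.14; after scaling to the poly-A controls all 46 lie to the right of 0.

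Genes with a profile like that of C1s1 were sought by the distance between profiles over the 6 arrays, each centred on its mean. The nearest named genes were Cck, a peptide hormone, Col6a1, a chain of collagen VI, Sbsn, a secreted epithelial protein, Pcolce2, an enhancer of procollagen processing, and Mgp, the matrix Gla protein. Their distances ran from 0.13 to 0.24 log2 units. Cck read 9.48, 9.52 and 9.56 in CD73+ and 8.02, 8.01 and 7.98 in CD73- AD-MSCs, a step of the size seen for C1s1. With 3 arrays in each subgroup, the distance mostly reflects the size of the step.

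Markers of stromal cells and of other cells that adipose tissue holds were read beside these results. Of 11 measured stromal markers 7 were higher and 0 lower, beside 10.1% and 12.6% of all genes. Col1a2 lay at 13.38 and 12.83 and Dcn, the largest rise among them, at 8.75 and 7.50 in CD73+ and CD73- AD-MSCs. Eng, Cd44, Itgb1 and Lum did not pass, and Lum had -0.13 with overlapping arrays, below the first quartiles. The summed linear signal of the stromal markers was 21832 to 22016 in CD73+ against 15679 to 15995 in CD73- AD-MSCs. Of 14 macrophage markers, 2 (Csf1r and Cd14) were higher and 1 (C1qc) lower. Their summed linear signal was 469.9 to 499.3 in CD73+ and 409.8 to 441.4 in CD73- AD-MSCs. Csf1r (6.87 and 6.38), Cd14 (6.66 and 6.16), Cd68 (5.70 and 5.51), Lyz2 (5.49 and 5.36) and Fcer1g (5.28 and 5.57) lay around or above the array medians. The other 9 markers lay below them, with Ptprc (3.06 and 3.19), Itgam (3.25 and 3.32) and Mrc1 (2.86 and 2.88) below the first quartiles. Of 8 mesothelial markers 1 (Msln) was higher, with a summed signal of 179.3 to 193.8 against 162.3 to 184.5. Of 8 smooth muscle and pericyte markers 1 (Cnn1) was higher, with 15678 to 16033 against 14634 to 14986. The size of such sums comes mostly from the brightest markers. These were Col1a2 in the stromal list and Acta2 (13.67 and 13.64, with overlapping arrays) in the smooth muscle and pericyte list. Of 8 endothelial markers 0 passed in limma with or without adjustment, with 173.5 to 188.3 against 172.7 to 186.8. Of 7 adipocyte markers 1 (Pparg) was lower on the deposited scale, with 778.2 to 818.8 against 827.0 to 885.5. The part of these cells in the complement differences was not tested, and in such bulk samples more cells of a type and more RNA per cell cannot be told apart.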

How the data were processed

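RNA of 3 CD73+ and 3 CD73- AD-MSC samples was hybridised to Affymetrix mouse arrays. The authors deposited log2 values of each probe set, which the submitters' processing notes credit to RMA (version not given in the sources used here). RMA corrects background, makes the arrays' distributions alike, which hides any change common to most transcripts, and compresses small ratios. Subgroups and replicate numbers came from the sample titles.

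After 64 control probe sets were set aside, limma 3.58.1 in R 4.3.3 was fitted to the other 45037 (lmFit and eBayes, CD73+ against CD73-, no filter), and p-values were adjusted over these by Benjamini-Hochberg and called under 0.05. The methods name no test for the arrays. The test they name for the study's other data, which for a pair of groups is one with equal variances, was run as an alternative and is called the methods' t-test. The platform annotation gives 1 symbol for 34945 probe sets, several for 932 and none here for 9160. A gene was read from its brightest probe set with 1 symbol. All 46 measured complement genes matched RefSeq by Entrez ID. No set test was run, and the comparison of protein sequences was not done.

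Members and gene lists were chosen with earlier results of these data known. Named are the members, complement genes fixed by name, the genes with the largest called rise and fall in each role (the smallest p where none passed), Nt5e and the 5 genes nearest to C1s1. Alternatives were quantile normalization, median centring, scaling to the poly-A controls, a filter at the median level, another eBayes prior, a replicate block, the methods' t-test, the mean of a gene's probe sets, and leaving out each array. The number of arrays limits the precision; the median SD within a subgroup was 0.10. Python 3.11.15 and matplotlib 3.10.9 drew the figures.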

Additional observations from a re-analysis of the deposited data

How the results depend on the processing

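The differences of C1s1, C1ra, Serping1, Cd55, Cfb and Masp1 stayed above 0 under every alternative that gave a value, and no member was called lower. Leaving out each array in turn gave 1.49 to 1.59 for C1s1, 1.14 to 1.33 for C1ra, 1.03 to 1.24 for Serping1, 0.37 to 0.48 for Cd55, 0.27 to 0.40 for Cfb and 0.22 to 0.31 for Masp1, and 4 to 6 members called. C2 ran from -0.091 to 0.040. Median centring and the replicate block each left 5 members called, without Masp1, and the filter at the median level 4, since it removes Cfb and Cd55. The methods' t-test after Benjamini-Hochberg called 4. Scaling to the poly-A controls gave 2.47 for C1s1, 2.15 for C1ra, 2.04 for Serping1, 1.36 for Cd55, 1.27 for Cfb, 1.18 for Masp1 and 0.92 for C2.

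Over all probe sets, 4408 were called higher and 4105 lower. Scaling to the poly-A controls gave 44707 and 33, and leaving out each array 2794 to 4199 and 2525 to 3907, with counts over 1.5 times lower without CD73+ replicate 1 (2794 and 2525), CD73+ replicate 2 (2896 higher) or CD73- replicate 2 (2563 lower). The replicate block gave 2713 lower and the methods' t-test without adjustment 6188 lower. In the wider list, 8 were higher and 2 lower. The higher count was 46 with poly-A scaling, 5 with the methods' t-test after Benjamini-Hochberg and 5 to 7 without each array, with 5 without CD73+ replicate 1 or CD73+ replicate 2. The lower count was 0 with quantile normalization or poly-A scaling, 1 with the replicate block and 0 to 1 without each array. Across subgroups, the deviations of arrays with the same replicate number had r of -0.14, 0.028 and -0.14. Arrays with different numbers had -0.063 to 0.17. Probe sets are not independent, and with 3 arrays per subgroup these values cannot show whether the numbers pair the arrays.

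Signs turned with poly-A scaling for C1qa (0.85), C1qb (0.87), C1qc (0.63), Masp2 (0.87), Hc (0.86), Cd46 (0.81), Cr1l (0.75), Vtn (0.80) and C1qbp (0.72), where the shared shift accounts for the turn by construction. Differences near 0 also changed sign without some arrays, with ranges of -0.24 to 0.11 for C1qa, -0.13 to 0.022 for C1qb, -0.12 to 0.028 for Masp2, -0.15 to 0.025 for Hc, -0.070 to 0.046 for Cd59a and -0.016 to 0.14 for C5ar1. Masp2 also turned with the mean of its probe sets (0.18) and Cd59a with median centring (-0.027). Other causes were not tested. Probe sets below the first quartile, those of Cd55 among them, limit what can be read.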
